A study of Mus musculus with 24 samples.

Results

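Wide 5hmC regions are stretches of DNA at least 2500 bp long in which sequencing reads of DNA enriched for 5-hydroxymethylcytosine (5hmC) were gathered in mouse striatum. They were taken from the deposited table that compares heterozygous (het) with wild-type (wt) mice that were not stressed, as every region on an autosome of width end minus start plus 1 of at least 2500 bp, leaving out chromosome 6 from 30 to 60 Mb. This gave 1036 wide regions of 37514 eligible autosomal regions (2.76%), in a table of 38107. The 15 other regions of at least 2500 bp were not members, 14 because they lie in the part of chromosome 6 left out and 1 because it is on chromosome X. In the other 4 tables, each of which compares another pair of groups and has its own set of regions, the regions that overlap a wide one were followed. They numbered 1140 of 33234 for wt stress against wt control, 1132 of 32205 for het stress against het control, 956 of 24982 for het stress against wt stress and 1152 of 31667 for het stress against wt control.

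5-Hydroxymethylcytosine is made from 5-methylcytosine by the TET dioxygenases. It is a step on the way to removal of the methyl group and also a lasting mark that neurons hold at higher levels than most other cells. In brain it is known to lie within the bodies of active genes and at enhancers, and to be low at active promoters.

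The mice were female C57BL/6 and either wild type or heterozygous for Cntnap2, the gene of Caspr2, an adhesion protein of neurons. Pregnant dams that carried embryos of both genotypes underwent variable stress for 7 days from embryonic day 12.5 (the stress groups) or did not (the control groups). All offspring were ear-tagged at postnatal day 12 and weaned at day 18; the sources used here do not give the age at which the brains were taken. Each of the 4 groups (het control, wt control, het stress, wt stress) held 3 mice, and 1 library of 5hmC-enriched DNA was made from each mouse. The tissue was a bulk micropunch of striatum, so a change in the share of a cell type and a change of the mark within cells cannot be told apart. Heterozygotes keep 1 intact copy of Cntnap2.

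RNA from the same punches was used only to check the labels, and the animal numbers of RNA and 5hmC differ for 1 mouse, het control replicate 1. Ppp1r1b, which encodes the striatal signalling protein DARPP-32, lay between 1109 and 2759 TPM (the length-scaled transcript level) in all 12 RNA libraries, Drd1 between 66.3 and 145 TPM, and Adora2a between 116 and 266 TPM. The cortical glutamate transporter gene Slc17a7 lay between 9.47 and 135 TPM and the choroid plexus gene Ttr between 0.90 and 826 TPM, so these levels differed widely between punches; their part in the 5hmC values was not tested. Cntnap2 mRNA was 42.6, 36.0 and 46 TPM in het controls, 43.6, 40.3 and 55.1 in wt controls, 45.5, 49.2 and 59.5 in stressed hets and 39.7, 42.6 and 68.3 in stressed wild types. The genotypes overlapped in both conditions, so this level does not check the genotype labels. Xist, which is expressed from the inactive X of females, was 1.32 TPM in wt stress replicate 2 against 23.1 to 109 TPM in the other 11 libraries, all labelled female. In the 5hmC table of wild-type mice, that replicate had 0.216% of its counts on chromosome X, within the 0.174% to 0.280% of the other 5 libraries. In the table of het stress against wt stress it had 0.268%, below the 0.305% to 0.399% of the other 5 libraries. The 5hmC libraries held 1033060 to 4331517 counts per table. Replicates are separate mice of a group, but litters are not given, so p-values speak for the spread among the mice sampled.

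The wide regions were mostly only a little wider than the limit. Their median width was 2833 bp, the middle 50% lay between 2632 and 3247 bp, and 400 reached 3000 bp, 79 reached 4000 bp and 14 reached 5000 bp. The widest, chr9:3015000-3024107 (positions here are those of the files, in mouse build mm9), measured 9108 bp. The next were chr13:95584582-95590625 at 6044 bp, chr2:98501990-98507999 at 6010 bp, chr9:3024600-3030599 at 6000 bp and chr3:138676776-138682499 at 5724 bp. The other 36478 autosomal regions had a median width of 1131 bp, and none was narrower than 1001 bp. Around the limit, 68 regions of 2500 to 2510 bp had a read density of 11.6 to 26.1 (median 17.5) and 12 regions of 2490 to 2499 bp one of 13.6 to 26.8 (median 15.0). Read density is the count per kb once the library's total in the table is scaled to 1000000. The ranges on either side of the limit overlap widely. In all, the wide regions covered 3.15 Mb and the others 46.5 Mb.

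Wide regions occurred on all 19 autosomes. They made up from 2.14% of the regions of chromosome 12 (38 of 1772) to 3.67% of those of chromosome 18 (67 of 1825), with 3.48% on chromosome 15 and 3.17% on chromosome 17. They lay closer to other 5hmC regions than narrower ones did: the median gap to the nearest region was 2205 bp for wide and 5965 bp for other regions, and 28.2% of wide against 15.6% of other regions had a neighbour within 1000 bp. Another wide region lay within 10000 bp of 135 wide regions (13.0%), which fell into 61 runs, 52 of them pairs. The longest run was 7 wide regions within chr11:3045300-3091799, a span of 46500 bp that holds the first wide regions of chromosome 11. Runs of 3 lay on chromosomes 2, 3, 4, 8, 9, 10 and 18, such as chr18:69572499-69595612 and chr8:19973100-19987499. No gene names are given for regions, since no gene annotation of mm9 was used here.

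Read density hardly depended on width. Over the 6 control libraries the median density of wide regions was 16.9 ± 0.164 (SD, n = 6), and that of the other regions 16.6 ± 0.239. The ratio of the medians within a library ran from 0.9997 to 1.0365, and its mean was 1.02. Over 7 width classes the median density lay between 16.4 and 17.3, the highest in the 79 regions of 4000 to 9108 bp. Across the 37514 regions, the Spearman correlation of width with density was -0.02, and across the 1036 wide ones 0.05; the regions share libraries, and width and count may come from the same reads, so these values describe the table. Width did set how many reads a region held: the median count per library rose from 52.5 in the narrowest class to 223.5 in the widest, and the median was 147 for wide and 60 for other regions. In the other tables, where the regions overlapping a wide one were compared with all other autosomal regions, the density ratio was 1.07 for both stress comparisons within a genotype, 1.13 for het stress against wt stress and 1.08 for het stress against wt control. In those tables the regions that overlap no wide one include some of at least 2500 bp (201 to 271 per table).

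**Figure D1:**
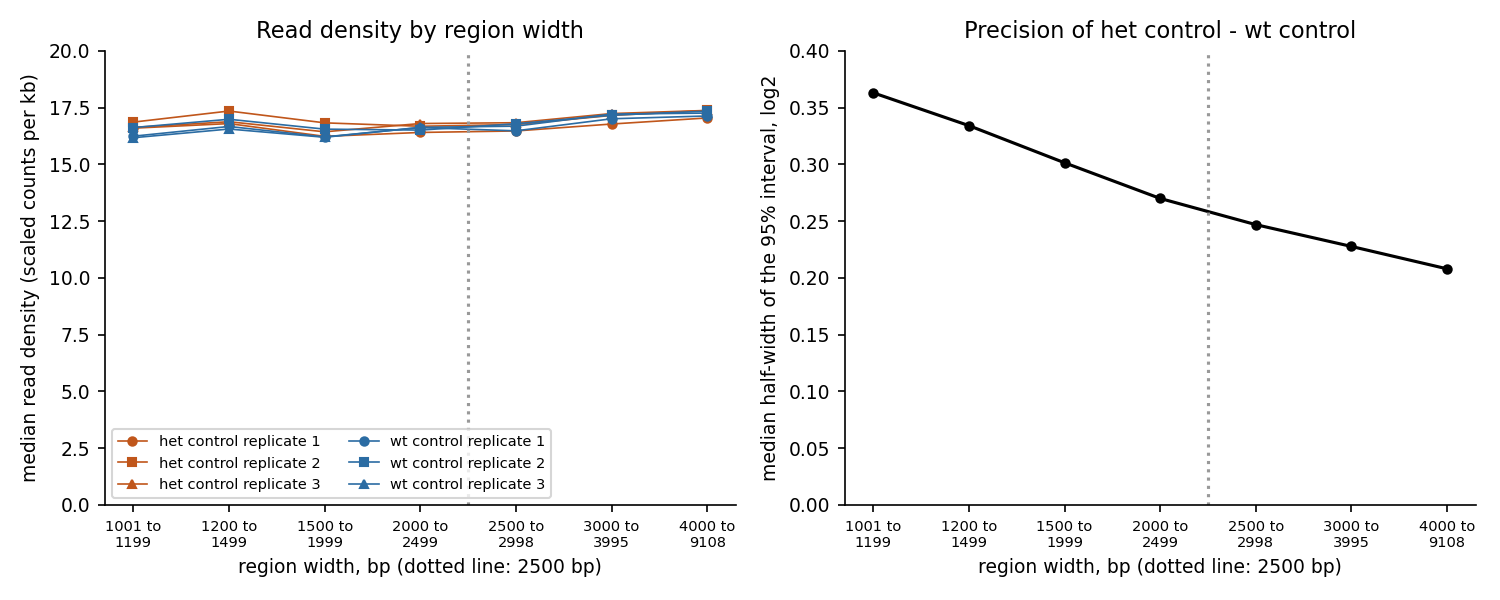
Left, the median read density (scaled counts per kb) of the regions of 7 width classes in each control library, 3 het and 3 wt; right, for the same classes, the median distance from the estimate to either end of the 95% interval of the het minus wt difference, in log2 units. The lines on the left stay between 16.2 and 17.4 at every width, while the interval on the right narrows from 0.36 to 0.21.

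A few wide regions stood far above the rest. At 2 times the median autosomal density or more were 10 of 1036 wide regions (0.965%) and 83 of 36478 others (0.228%), and at 5 times or more 5 wide and 11 others. The densest by far was chr2:98501990-98507999, which held 252651, 347099 and 298154 reads in the het controls and 271994, 503245 and 421024 in the wt controls. As read densities these are 20024, 17228 and 18221 in het and 22130, 19332 and 21606 in wt controls, a mean of 1193 times the autosomal median. The het and wt values overlap, since the highest het value exceeds the lowest wt value. The next 4 all lay close together on chromosome 9: chr9:2999662-3003299 at 62.2 times the median, chr9:3024600-3030599 at 30.5 times, chr9:3015000-3024107 at 23.7 times and chr9:3033900-3037199 at 16.6 times. These 5 regions ranked the libraries almost alike. In 4 of them the order from high to low was wt control 1, wt control 3, het control 1, wt control 2, het control 3 and het control 2, and in chr9:3033900-3037199 only the last 2 changed places. No annotation of repeats was used here, and no library of DNA without enrichment. Whether the counts of these 5 regions come from 5hmC was not tested.

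Of the remaining dense regions, chr1:24618000-24623099 differed most from library to library. In chr1:24618000-24623099 (5100 bp, 3.77 times the median) the density was 92.7, 40.1 and 33.7 in het and 95.4, 38.5 and 72.9 in wt controls. Replicates of 1 genotype differed there by more than the genotypes did: the pooled SD of log2 CPM (counts scaled to the library's effective total) within groups was 0.74, the highest of all wide regions, against a median of 0.13. The other 4 regions at 2 times the median or above were chr1:90174274-90177599 (2.44 times) and, in the run on chromosome 11, chr11:3045300-3048899 (3.14 times), chr11:3050500-3054973 (2.34 times) and chr11:3075600-3079799 (2.00 times). Their densities had SDs of 2.61 to 7.76 over the control libraries, against 28.3 at chr1:24618000-24623099. Next in spread between replicates came the 3 neighbours of the run on chromosome 8, such as chr8:19979527-19983199, with 59.98, 103 and 65.7 CPM in het and 54.2, 98.0 and 77.4 CPM in wt controls. Replicate 2 was the highest of its group at this region in both genotypes.

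**Figure D2:**
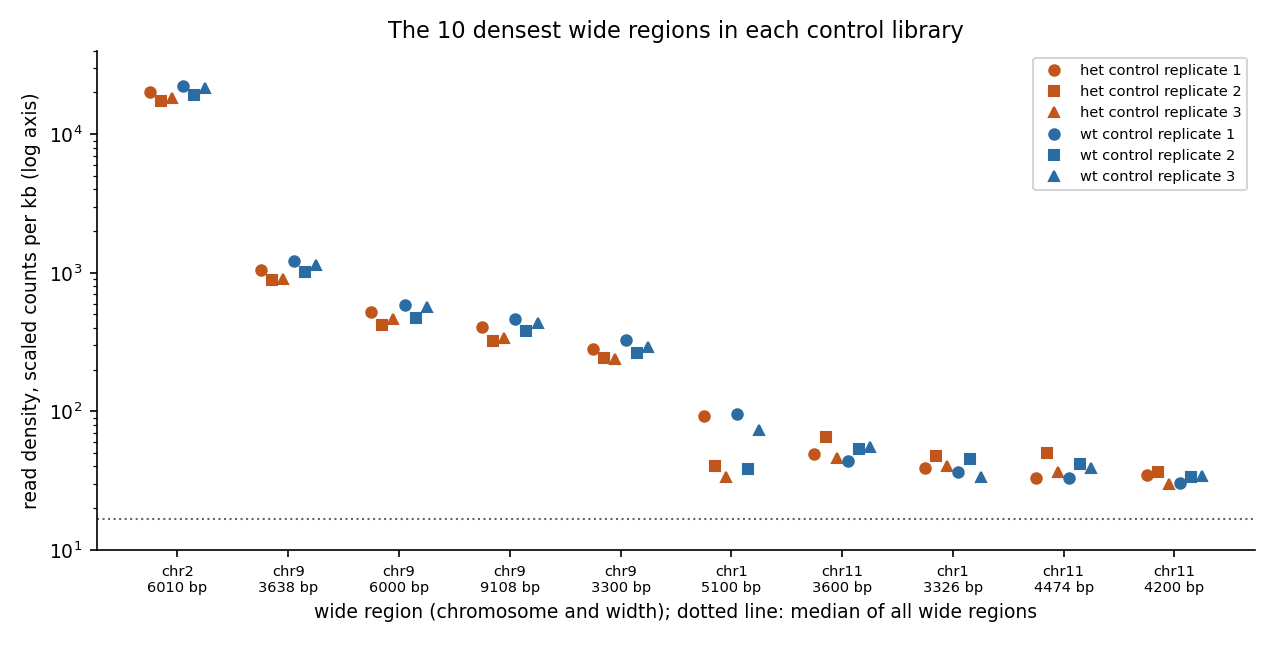
Read density (scaled counts per kb, log axis) of the 10 wide regions at 2 times the autosomal median or above, 1 point per control library; het controls are orange and wt controls blue, and the dotted line is the median of all wide regions (16.9). The region on chromosome 2 lies at 17228 to 22130 in all 6 libraries, and the points of the first region on chromosome 1 scatter from 33.7 to 95.4.

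Because of these regions, the share of reads in wide regions is mostly a readout of 1 region. Wide regions held 18.5%, 16.7% and 17.4% of the table's counts in the het controls and 19.97%, 18.1% and 19.6% in the wt controls, on 6.24% of the table's length. The region on chromosome 2 alone held 12.0%, 10.4% and 11.0% in het and 13.3%, 11.6% and 13.0% in wt controls. Without it the share of the other 1035 wide regions was 7.37%, 7.07% and 7.24% in het and 7.69%, 7.32% and 7.62% in wt controls, and without the 5 densest wide regions and the others as dense it was 6.21%, 6.13% and 6.25% in het and 6.34%, 6.23% and 6.36% in wt controls. The wt values were the higher on average in each case, but the genotypes overlapped in all of them. In the het stress against het control table, the region on chromosome 2 held 14.5%, 15.4% and 17.9% in stressed and 13.9%, 12.1% and 12.7% in control hets, with no overlap. Without the dense regions the shares there were 6.34%, 6.36% and 6.29% against 6.26%, 6.22% and 6.29%, and the ranges overlapped. In the wild types, wt stress replicate 1 stood apart with 18.6% of its counts in the region on chromosome 2, against 12.9% and 12.6% in the other stressed wild types and 13.2% to 14.9% in the controls.

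Wide regions were found again in the other tables more often than narrower ones. A region of the table overlapped (by at least 1 bp) 1010 wide regions (97.5%) for wt stress against wt control, 982 (94.8%) for het stress against het control, 827 (79.8%) for het stress against wt stress and 1002 (96.7%) for het stress against wt control. The same share of other regions was 74.2%, 73.3%, 43.8% and 71.8%; a wide region offers more bases to overlap, and the shares are a description. All wide regions were overlapped in at least 1 other table, and 797 (76.9%) in all 4. Their width recurred less well. A region of at least 2500 bp lay over 623, 487, 228 and 601 wide regions in the 4 tables in the same order, over 119 (11.5%) in all 4 tables and over 139 (13.4%) in none. The median width of the overlapping regions was 2528, 2236.5, 1757.5 and 2504.5 bp. Between 119 and 143 wide regions per table were overlapped by 2 separate regions. The table of het stress against wt stress, in which the widths were smallest, shares no group with the table that defined the wide regions, and it holds the fewest regions and the library with the fewest counts. An example of splitting is chr3:138676776-138682499, 5724 bp in the control table, which lay as 4 regions of 1059 to 1279 bp in the het stress against wt stress table.

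**Figure D3:**
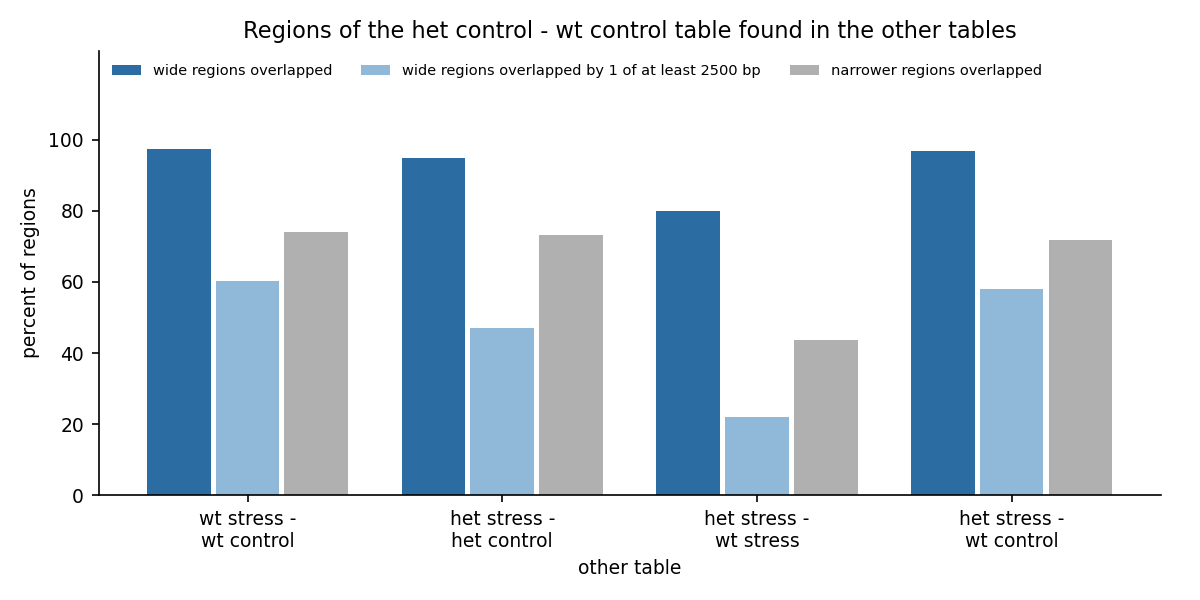
For each of the other 4 tables, the percentage of the 1036 wide regions overlapped by a region of that table (dark blue), of wide regions overlapped by a region of at least 2500 bp (light blue) and of the 36478 narrower regions overlapped (grey). Dark bars run from 79.8% to 97.5% and grey bars from 43.8% to 74.2%, and the light bars drop to 22.0% for het stress against wt stress.

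Het and wt controls were then compared region by region with edgeR's quasi-likelihood test over the whole table, adjusted by Benjamini-Hochberg over all its regions. None of the 1036 wide regions was called at an adjusted p of 0.05, where 0.00262% of all regions were (1 of 38107), and the smallest adjusted p of a wide region was 0.516. DESeq2 also called 0 wide regions, and 0% of all regions. At an unadjusted p under 0.05 there were 68 wide regions (6.56%) by edgeR, against 7.51% of all regions. By DESeq2 there were 28 of 1036 wide regions and 753 of all 38107. Of the 68, 19 were higher in het mice (1.83% of wide regions, background 3.64%) and 49 lower (4.73%, background 3.87%). The 3 het and 3 wt values did not overlap at 130 wide regions (12.5%), near the 13.7% of all regions, 41 of them higher in het (background 6.69%) and 89 lower (background 6.99%). The median log2 fold change, het minus wt, was -0.02 for wide and 0.00 for other regions, and 593 of 1036 wide regions lay below 0. With library totals in place of TMM factors both medians rose, to 0.01 for wide and 0.03 for other regions, and the gap between them was -0.02 under either scaling.

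The wide region with the smallest p that was higher in het controls was chr4:42086400-42089256 (2857 bp). It held 50.5, 64.5 and 47.2 CPM in het and 29.3, 36.6 and 42.6 CPM in wt controls. Every het value was above every wt value. The log2 fold change was 0.57 ± 0.13 (SE), with an unadjusted p of 4.37e-05 and an adjusted p of 0.516 in edgeR. The same coordinates occur in the table of het stress against het control, where the values were 52.1, 40.5 and 28.6 CPM in stressed and 57.6, 75 and 54 CPM in control hets, lower in all 3 stressed mice, with a log2 fold change of -0.59 ± 0.15 (SE) and an adjusted p of 0.108 in edgeR. The 2 comparisons share the het controls, so they are not independent of each other. In both tables replicate 2 was the highest het control.

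Of the wide regions lower in het controls, chr4:48275295-48277922 (2628 bp) had the smallest p. It held 26.2, 23.5 and 21.4 CPM in het and 39.3, 34.0 and 33.2 CPM in wt controls. The groups did not overlap and each was tight, with SDs of 2.39 and 3.28 CPM. The log2 fold change was -0.58 ± 0.15 (SE), the lowest estimate among the wide regions, at an adjusted p of 0.598 in edgeR. This region is thin, at 0.68 times the median density. The same coordinates in the wt stress against wt control table held a log2 fold change of -0.48 ± 0.15 (SE) at an adjusted p of 0.369 in edgeR, with the wt controls shared between both comparisons.

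The next wide regions by smallest p within each direction, 8 in all, had smaller differences. Higher in het were chr5:150971737-150975500 (log2 fold change 0.39), chr19:55675721-55678754 (0.34), chr2:4955499-4958262 (0.33) and chr16:33460516-33465102 (0.26). Lower in het were chr11:3088296-3091799 (-0.36), chr6:143141050-143143972 (-0.35), chr18:84537906-84542129 (-0.32) and chr18:69740146-69745220 (-0.31). Their adjusted p was 0.598 to 0.616 in edgeR. At chr11:3088296-3091799, the last wide region of the run on chromosome 11, the values were 68.5, 74.2 and 59.5 CPM in het and 84.0, 88.3 and 86.8 CPM in wt controls. At chr18:69740146-69745220, the widest of the 8 at 5075 bp, they were 85.2, 76.9 and 75.9 CPM in het and 107, 97.7 and 90.6 CPM in wt controls. All 8 had het and wt values that did not overlap, as the choice by smallest p favours. Each direction was ranked apart, so a region lower in het could be left out with a smaller p than a named higher one. An example is chr3:30697800-30700318 (-0.39, unadjusted p = 0.00373 in edgeR), against 0.0127 at chr16:33460516-33465102.

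None of the 5 densest and the 5 widest regions was called in this comparison by the fit without a replicate block. At chr2:98501990-98507999 the log2 fold change was -0.21 ± 0.16 (SE; adjusted p = 0.765 in edgeR), and at the 4 regions on chromosome 9 it ran from -0.29 to -0.23. At chr13:95584582-95590625, the second widest region, the values were 92.8, 88.0 and 87.5 CPM in het and 109, 89.5 and 95.6 CPM in wt controls, which overlap. Its log2 fold change was -0.12 ± 0.10 (SE). At chr3:138676776-138682499 they were 104, 84.8 and 91.8 CPM against 94.9, 90.6 and 99.7 CPM, a log2 fold change of -0.03 ± 0.10 (SE).

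Prenatal stress in wild types was compared at the 1140 regions that overlap a wide one. None was called by edgeR, as in the whole table (0% of all regions), or by DESeq2 (0%). At an unadjusted p under 0.05 there were 87 (7.63%, all regions 8.85%) by edgeR. By DESeq2 there were 38 of 1140, and 1040 of all 33234 regions. Of the 87, 25 were higher under stress (2.19%; all regions 4.5%) and 62 lower (5.44%; all regions 4.35%). Groups did not overlap at 132 regions (11.6%; all regions 13.9%), 46 higher (all regions 7.03%) and 86 lower (all regions 6.85%). The median log2 fold change was -0.02 against -0.00 for other regions. These wt controls are also the reference of the genotype comparison above and of the last comparison below.

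The smallest p was at chr11:3062800-3065465, in the run on chromosome 11. Stressed wild types held 63.8, 71.2 and 63.6 CPM and controls 81.8, 94.0 and 97.3 CPM. All stressed values were below all control values. The log2 fold change was -0.47 ± 0.11 (SE) at an adjusted p of 0.153 in edgeR. Without 1 library, the adjusted p in edgeR ran from 0.0164 (without wt control replicate 1) to 0.766. At chr9:77605500-77607599 the values were 19.7, 41.4 and 33.8 CPM under stress and 44.4, 47.4 and 54 CPM in controls, and wt stress replicate 1 was the lowest by a wide margin; the log2 fold change was -0.59 ± 0.15 (SE). At chr9:31868445-31871099 they were 46.1, 37.9 and 40.1 CPM against 66.9, 48.4 and 61.4 CPM (-0.49 ± 0.13, SE). Of regions higher under stress, chr18:33223900-33225800 led with 47.4, 37.9 and 50.7 CPM against 40.1, 29.9 and 31.0 CPM (0.48 ± 0.14, SE), values that overlap. It was followed by chr6:137266917-137268452 (0.47 ± 0.15, SE) and chr7:118371100-118374263 (0.34 ± 0.11, SE), where the groups did not overlap. These 5 regions had adjusted p of 0.302 to 0.390 in edgeR.

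In het mice, stress was compared at 1132 regions that overlap a wide one. None was called by edgeR, where 0.00621% of all regions were (2 of 32205), or by DESeq2 (0% of all regions). There were 78 at an unadjusted p under 0.05 by edgeR (6.89%, all regions 9.95%). By DESeq2 there were 26 of 1132, and 903 of all 32205 regions. Of the 78, 46 were higher under stress (4.06%; all regions 4.91%) and 32 lower (2.83%; all regions 5.04%). Groups did not overlap at 128 (11.3%; all regions 15.4%), 77 higher (all regions 7.85%) and 51 lower (all regions 7.5%). The median log2 fold change was 0.02, against -0.00 for other regions. With library totals both medians fell, to -0.04 and -0.06, and the gap between them was 0.02 under either scaling.

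The smallest adjusted p of any region that overlaps a wide one, 0.0879 in edgeR, belonged to chr18:69688900-69690407, a 1508 bp piece of the wide region chr18:69687447-69690407. Stressed hets held 19.9, 16.7 and 20.1 CPM and control hets 27.7, 35.5 and 33.3 CPM. The groups lay clearly apart. The log2 fold change was -0.76 ± 0.18 (SE). The other piece of the same wide region, chr18:69687447-69688524, had a log2 fold change of 0.32 ± 0.17 (SE), so the estimates of the 2 pieces had opposite signs, neither past the threshold; in the control table the whole region differed by 0.11 ± 0.11 (SE) between genotypes. Next came chr4:42086400-42089256, given above, and chr11:3050500-3052199, where stressed hets held 82.6, 61.9 and 78.5 CPM and controls 78.8, 131 and 99.8 CPM, which overlap (-0.47 ± 0.13, SE). Higher under stress were chr3:133928961-133932500, with 63.9, 77.0 and 72.7 CPM against 53.8, 47.7 and 54 CPM (0.44 ± 0.13, SE), chr3:30697800-30699062 (0.55 ± 0.17, SE) and chr17:63667500-63668534 (0.64 ± 0.20, SE), all without overlap and at adjusted p of 0.171 to 0.199 in edgeR.

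This comparison changed most when 1 library was left out. Without het control replicate 1, edgeR called 4 regions that overlap a wide one, namely chr1:24618000-24623099, chr11:3050500-3052199, chr18:69688900-69690407 and chr4:42086400-42089256, and 60 in the whole table. Without het stress replicate 1 it called chr16:58674100-58676899 and chr4:42086400-42089256, and 42 in the whole table. Without het control replicate 3 it called only chr4:42086400-42089256 among them, and 29 in the whole table. Leaving out each of the other 3 libraries gave 0 calls. At chr1:24618000-24623099 the values were 311, 362 and 437 CPM in stressed and 539, 234 and 195 CPM in control hets, so the difference there turns on het control replicate 1.

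The densest regions on chromosomes 2 and 9 had higher values on average in the stressed hets, without passing the threshold. At chr2:98501990-98507999 the log2 fold change was 0.36 ± 0.21 (SE), and at chr9:3015000-3024094, with 4328, 4727 and 5805 CPM in stressed and 4219, 3359 and 3504 CPM in control hets, it was 0.42 ± 0.20 (SE; unadjusted p = 0.0354, adjusted p = 0.455 in edgeR). No stressed value fell below a control value at either. In the wild types, the same 2 places differed by 0.07 ± 0.49 (SE) at chr2:98501981-98507835 and by 0.03 ± 0.26 (SE) at chr9:3015000-3020999, and wt stress replicate 1 was the highest of 6 at both. At another dense region, chr9:3034200-3038699, values overlapped in het mice, with 1164, 1318 and 1583 CPM in stressed and 1188, 1046 and 1021 CPM in control hets. The log2 fold change there was 0.32 ± 0.18 (SE).

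Stressed het and stressed wild-type mice were compared at 956 regions. EdgeR called none of them and 0% of all regions, and DESeq2 likewise (0%). At an unadjusted p under 0.05 there were 49 by edgeR (5.13%, all regions 7.41%). By DESeq2 there were 9 of 956, and 375 of all 24982 regions. Of the 49, 28 were higher in het (2.93%; all regions 3.63%) and 21 lower (2.20%; all regions 3.78%). Groups did not overlap at 106 (11.1%; all regions 12.9%), 65 higher (all regions 6.55%) and 41 lower (all regions 6.34%). The median log2 fold change was 0.01, against -0.01 for other regions. The region with the smallest p, chr16:43371865-43373804, held 43.2, 52.1 and 56.2 CPM in het and 31.6, 35.1 and 33.7 CPM in wild-type mice, without overlap (0.56 ± 0.16, SE; adjusted p = 0.532 in edgeR). In the other direction, chr16:58675536-58676899 held 27.6, 18.3 and 19.5 CPM against 35.7, 32.6 and 38.2 CPM (-0.64 ± 0.19, SE). Also named by smallest p were chr12:41314247-41317001 (0.44), chr10:104866420-104867439 (0.57), chr10:42849700-42852770 (-0.37) and chr8:67259643-67260899 (-0.48), all at the same adjusted p of 0.532 in edgeR. Values overlapped at chr10:42849700-42852770 and at chr8:67259643-67260899.

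The comparison of stressed het mice with wt controls, which differ in both factors, covered 1152 regions. EdgeR called none, where 0.00947% of all regions were called (3 of 31667), and DESeq2 called none (0% of all regions). At an unadjusted p under 0.05 there were 63 by edgeR (5.47%, all regions 7.15%). By DESeq2 there were 15 of 1152, and 531 of all 31667 regions. Of the 63, 26 were higher in the stressed hets (2.26%; all regions 3.84%) and 37 lower (3.21%; all regions 3.31%). Groups did not overlap at 111 (9.64%; all regions 12.3%), 60 higher (all regions 6.71%) and 51 lower (all regions 5.54%). The median log2 fold change was -0.00, against 0.00 for other regions. The smallest p was at chr12:76594599-76597399, with 35.8, 40.2 and 33.0 CPM in stressed hets and 53.1, 57.2 and 52.8 CPM in wt controls. The groups lay apart by more than their SDs of 3.64 and 2.48 CPM, and the log2 fold change was -0.60 ± 0.14 (SE; adjusted p = 0.125 in edgeR). At the same coordinates, het controls differed from wt controls by -0.20 ± 0.12 (SE) and stressed wild types by -0.20 ± 0.12 (SE). Lower as well were chr15:8340448-8343303 (-0.52 ± 0.15, SE) and chr8:19981697-19983199 (-0.51 ± 0.15, SE), the latter with values that overlap. Higher were chr15:92247700-92248700 (0.59 ± 0.19, SE), chr6:22271371-22272415 (0.57 ± 0.17, SE) and chr19:37025338-37028195 (0.37 ± 0.13, SE), of which the last had values that overlap. Whether stress acts differently in the 2 genotypes was not tested at wide regions, because only 448 regions have the same coordinates in both stress tables.

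**Figure D4:**
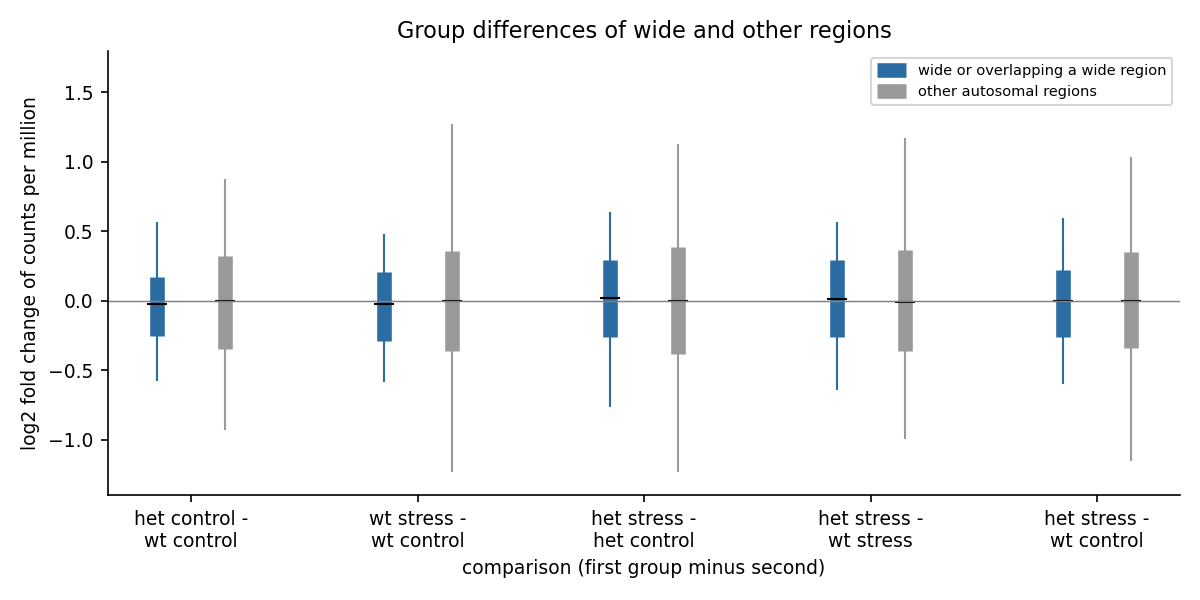
Log2 fold changes of CPM (first group minus second) in the 5 comparisons, for wide regions or regions overlapping one (blue) and for all other autosomal regions (grey); black dashes are medians, thick bars the 5th to 95th percentiles and thin lines the full range. All medians lie within 0.03 of 0, and the blue bars are shorter than the grey ones in each comparison.

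The differences at wide regions were measured more tightly than those elsewhere. In the genotype comparison of controls the 95% interval reached a median of 0.24 log2 units to either side at wide regions and 0.35 at others. In the other 4 tables, in the order above, it reached 0.26, 0.28, 0.31 and 0.27 at regions overlapping a wide one and 0.36, 0.37, 0.38 and 0.37 elsewhere. The estimates spread less too: in the control comparison 90% of wide regions lay between -0.25 and 0.17, and 90% of others between -0.34 and 0.32. No wide region differed by more than 1.5-fold between het and wt controls, against 202 of 36478 others. In the other 4 comparisons, in the same order, 1 of 1140, 3 of 1132, 1 of 956 and 3 of 1152 overlapping regions did. Of the other autosomal regions 334 of 31589, 491 of 30590, 265 of 23656 and 294 of 30028 did. The lower count of large estimates goes with the higher read count of wide regions, and the part of that count was not tested.

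The direction of a difference went with where else the same region coordinates occur. Tables that share a group held 5888 to 15898 regions of identical coordinates, while the 2 pairs of tables that share no group held 325 and 448. Of the wide regions, 307 recurred unchanged only in tables that share the wt controls; their median log2 fold change, het minus wt, was -0.08, and 225 were below 0. Another 157 recurred unchanged only in the table that shares the het controls; their median was 0.07, and 119 were above 0. The 562 that recurred in neither had a median of -0.02. Among narrower regions the medians were -0.12 for the wt-control and 0.12 for the het-control set. The same held in all 5 tables: regions whose coordinates recurred with the tables of 1 group were, in the median, higher in that group. For regions that overlap a wide one, these medians were 0.10 (wt stress) and -0.05 (wt control) in the first stress table, 0.13 (het stress) and -0.04 (het control) in the second, 0.11 and -0.06 for het stress against wt stress, and 0.08 and -0.04 for het stress against wt control. The sources used here do not say how region boundaries were set, and its part in the group differences was not tested.

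**Figure D5:**
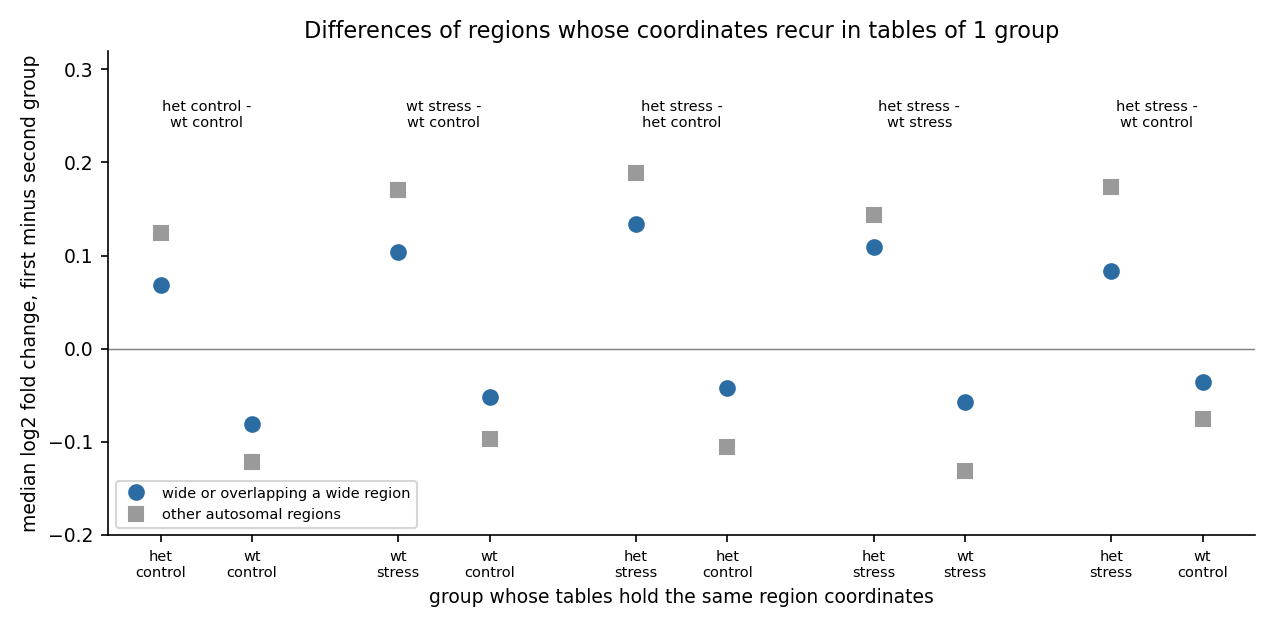
Median log2 fold change (first minus second group) of regions whose coordinates recur exactly only in tables of the first group or only in tables of the second, in each of the 5 comparisons; circles are wide regions or regions overlapping one, squares all other autosomal regions. In every position the median lies on the side of the group named on the axis, and the circles lie nearer to 0 than the squares.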

How the data were processed

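DNA enriched for 5hmC from striatum of 12 mice was sequenced; the submitters' processing notes name Bowtie 0.12.7 and the build mm9. For 6 unpooled libraries, each of the 5 deposited tables gives raw counts of reads in its regions, per the file headers. The sources used here do not say how regions were called and joined or filtered on width, although no autosomal region of the control table is narrower than 1001 bp. RNA values are TPM that RSEM computed per gene, as deposited by the authors.

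Counts of each table were scaled by TMM and fitted on all its regions with edgeR 4.0.16 (glmQLFit with robust dispersion, glmQLFTest, group as the only term, no filter) in R 4.3.3, with Benjamini-Hochberg adjustment over the table and a threshold of 0.05, two-sided. DESeq2 1.42.0 was an alternative, as were other scaling, filters, widths of 2000 and 3000 bp, a replicate block and leaving out each library. Tables were fitted one at a time. The fit was tested on simulated data. CPM are counts scaled to 1000000 with TMM factors, and density is counts per kb with the table total scaled to 1000000. Overlap needs 1 bp. Depth was 1033060 to 4331517 counts per library and table. No replicate had the same counts as another (chi-square between replicates of 1.07 to 2.41 a region). The chi-square cannot tell separate mice from 1 sample sequenced again, since reads drawn anew from the same sample would also differ.

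Regions named are the 5 widest, the 5 densest and, by smallest p, 5 higher and 5 lower in the control table; in each other table they are 3 higher and 3 lower among regions overlapping a wide one. The least regular dense and variable regions and the members of runs were chosen after their values were seen. The members and lists were chosen with earlier results of these data known.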

Additional observations from a re-analysis of the deposited data

How the results depend on the processing

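The count of called wide regions was 0 in all 5 tables with TMM, DESeq2 size factors, library totals, DESeq2, filterByExpr, non-robust dispersion, without the region of most counts and at widths of 2000 and 3000 bp. Leaving out 1 library at a time gave these calls of wide regions (over all regions in brackets). Het control against wt control had 0 to 0 (0 to 7) and het stress against wt stress 0 to 0 (0 to 4). Wt stress against wt control had 0 to 1. These were chr17:13742481-13745999 without wt stress replicate 1 (2) and chr11:3062800-3065465 without wt control replicate 1 (7). Het stress against het control had 0 to 4 (0 to 60). Het stress against wt control had 0 to 1, chr8:19981697-19983199 without wt control replicate 1 (18). Without wt stress replicate 2, whose RNA had low Xist, 0 regions overlapping a wide one were called in both of its tables. The sample labels do not say whether replicate numbers pair mice across groups. In the control table, same-numbered libraries had r of 0.02 to 0.18 over regions, against -0.17 to 0.03 for others. There, 5 of 6 libraries correlated best with their own number, against 0 to 3 of 6 in the other tables. Same-numbered r in those ran from -0.17 to 0.11. These values do not settle whether the numbers pair the mice, and the main fit used no pairing. With the replicate block, 32 regions passed in the control table, 5 of them wide: chr2:98501990-98507999, chr4:42086400-42089256, chr4:48275295-48277922, chr9:3015000-3024107 and chr9:2999662-3003299. Their adjusted p in edgeR was 0.0111, 0.000982, 0.0434, 0.00321 and 0.00798. Of 17 in het stress against het control, 1 overlapped a wide one (chr4:42086400-42089256). Of 1 in het stress against wt control 0 did, and the remaining tables had 0. The cause was not tested.

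With library totals, the median log2 fold change of wide regions moved from -0.0217 to 0.00535 for the controls, from 0.0180 to -0.0377 for het stress against het control, from 0.0129 to -0.00889 for het stress against wt stress and from -0.00327 to -0.0349 for het stress against wt control. The share of wide regions above 0 then went from 42.8% to 51.8%, from 53.8% to 41.1%, from 53.1% to 48.2% and from 49.4% to 39.5%. This scaling shifts all regions of a table together: the gap between the medians of wide and other regions was -0.0225 and -0.0221 with TMM and library totals for the controls, 0.0222 and 0.0213, 0.0203 and 0.0199, and -0.00462 and -0.00431 for the others in that order. Without 1 library the medians ran from -0.03 to -0.01, -0.03 to -0.01, 0.01 to 0.03, -0.00 to 0.02 and -0.01 to 0.00 in the 5 tables (controls, wt stress, het stress against het control, against wt stress, against wt control, as throughout this paragraph). Pooled counts over pooled length gave density ratios of 3.39, 4.03, 4.19, 5.86 and 4.19, since the densest region is then counted in full, and a width of 3000 bp gave 1.03, 1.09, 1.09, 1.16 and 1.10. The share of counts was 7.39%, 8.04%, 7.72%, 8.28% and 8.37% without the region of most counts, and 25.1%, 27.9%, 27.3%, 31.5% and 29.2% at 2000 bp. At 3000 bp it was 15.5%, 18.5%, 18.3% and 19.6% in the tables other than het stress against wt stress. Without 1 library the density ratio ran from 1.01 to 1.02, 1.07 to 1.07, 1.07 to 1.07, 1.13 to 1.14 and 1.08 to 1.08, and the share from 18.1% to 18.7%, 20.5% to 21.7%, 20.3% to 21.5%, 25% to 26.5% and 22.0% to 22.9%. Of the named regions, chr3:138676776-138682499 changed sign, from -0.03 to 0.0409 without het control replicate 2 and to 0.00888 without wt control replicate 3 (-0.107 to 0.0409 without 1 library), and no other did. Those that passed the threshold under a block or without a library are named above or in the report. At a typical wide region of the control table the 95% interval, not adjusted for the number of regions, reached about 0.24 log2 units to either side. Larger differences still missed the threshold: 0.57 at chr4:42086400-42089256 had an adjusted p of 0.516 in edgeR. The parts of depth and of the spread between mice in these intervals were not tested.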
